A study of Mus musculus with 504 samples.

Results

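Among the 5-cell pools sorted from mammary tumours of the Tnc-CreERT2 line, 19 of 504 wells in the series, or 19 of the 335 libraries that passed quality control, were selected on Ptprc, which encodes the leukocyte surface protein CD45. A pool was chosen when it passed, came from this line, belonged to population P15 or P05, and held Ptprc at 10 CPM or more (CPM are the reads of a gene per 1000000 reads counted in the library). The choice gave 12 P15 pools and 7 P05 pools. All 12 P15 pools of the line that passed met the rule, against 7 of 32 P05 pools. Because Ptprc chose the pools, its level and the presence of leukocyte RNA as such are descriptions and not findings. What was examined is which leukocyte types and which tumour transcripts the pools of each population held.

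The mice carry 4 engineered alleles. MMTV-PyMT expresses the polyoma middle T oncogene in the mammary gland and gives rise to tumours. MMTV-Flpo, a Flp recombinase under the same promoter, turns on mCherry from the reporter RC::FrePe, and Tnc-CreERT2, a tamoxifen-activated Cre under the gene of tenascin C, switches that reporter to GFP. All animals were given tamoxifen from week 9 of age (2 mg per dose, with 2 doses per week) until they were killed at about week 13 to 14. P15 was sorted as GFP positive, mCherry negative and EpCAM negative, and P05 as mCherry positive and EpCAM negative, so both gates lacked the epithelial surface protein EpCAM. By the study's design both colours mark tumour cells, and a pool of 5 cells gives no view of which of its cells a transcript came from. All cells were sorted from tumours, and the labels name no gate on CD45.

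The P15 pools came from TENA2483 (6 pools), TENA2517 (5) and TENA2524 (1), and the P05 pools from the same animals (4, 1 and 2). Totals ran from 508631 to 7293999 counts. A P15 pool held 4169 to 11012 detected genes (median 7327.5) and a P05 pool 4991 to 8104 (median 6822), or medians of 5920 and 5423 when each pool was thinned to 508631 counts. CT010467.1 took 11.3% to 24.4% of the counts of every pool. All libraries of TENA2524 were sequenced on lane 2 and those of the other animals on lane 1. Pools of an animal are not independent, so comparisons between populations rest on 3 animals each, and a bulk pool cannot tell fewer cells of a type from less RNA per cell. Reads carry no molecular identifiers, so bounds below cover counting error only.

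Ptprc (chromosome 1, 138062861 to 138175708, GRCm38) lay at 11.8 CPM in the lowest member, the P15 pool of TENA2524, where it rested on 6 reads. The next members held 76.9 CPM in P15 and 125 CPM in P05. Just outside the threshold stood P05 pools of TENA2462 (1.3 CPM, 2 reads) and TENA2524 (1.17 CPM, 7 reads). The single member near the threshold thus stands apart from the other 18, and results are given with it named.

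B cells carry an antigen receptor built from immunoglobulin chains and the signalling subunit CD79A, and on meeting antigen they may enter germinal centres, divide, and switch the constant region of the heavy chain. Macrophages are phagocytes that depend on the receptor CSF1R, secrete complement C1q and apolipoprotein E, and release cytokines such as interleukin 1 beta. They are a common leukocyte of mammary tumours. A pool is said to hold a type when 3 or more markers of its list reach 10 CPM.

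Among the P15 pools B-cell RNA was found in 1 animal, TENA2483, and high counts of macrophage markers in another, TENA2517, while the P05 pools had high counts of macrophage markers in every animal. All 6 P15 pools of TENA2483 held B-cell RNA, with 8 to 12 of 12 B and plasma cell markers. Their macrophage markers numbered 3, 1, 4, 6, 1 and 1 of 16 in R1 to R6, so 3 of the 6 also held macrophage RNA by the rule. All 5 P15 pools of TENA2517 held macrophage RNA, with 10 to 14 of 16 macrophage markers and 0 to 2 B-cell markers. All 7 P05 pools held macrophage RNA (11 to 13 of 16) and 0 or 1 B-cell marker. The P15 pool of TENA2524 held 5 macrophage markers. Within TENA2483 none of the 4 P05 pools reached 3 B-cell markers, and each held 11 macrophage markers, against 1 to 6 in its P15 pools. For comparison, the 55 pools of P18 (mCherry high, EpCAM high) of the line held 1 to 3 macrophage markers and 0 B-cell markers, so a count of 3 macrophage markers is also reached by epithelial pools, and 10 or more is not.

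**Figure D1:**
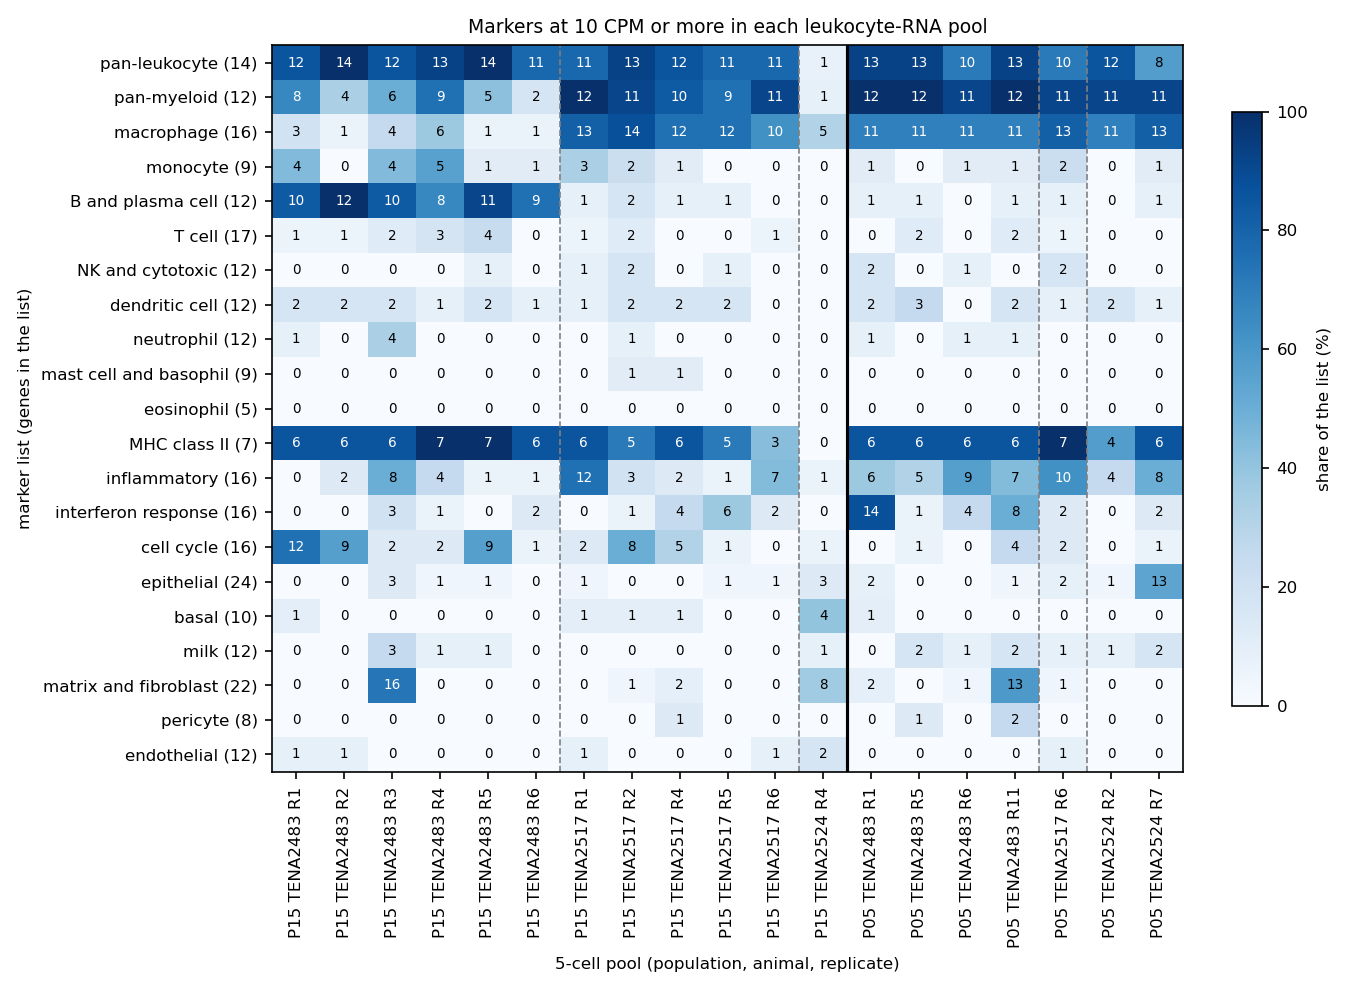
Each column is a pool and each row a marker list with its number of genes; the number in a cell counts the markers at 10 CPM or more and the shade gives them as a percentage of the list. The 6 P15 pools of TENA2483 hold 8 to 12 of 12 B and plasma cell markers, and the 5 P15 pools of TENA2517 and 7 P05 pools hold 10 to 14 of 16 macrophage markers.

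Cd79a (chromosome 7, 24897381 to 24902197) stood at 678, 718, 139, 731, 1019.8 and 749 CPM in the 6 P15 pools of TENA2483, R1 to R6 in order. It had 0 reads in the other 13 members. Igkc, the constant region of the kappa light chain (chromosome 6, 70726435 to 70726966), followed with 4007, 1636, 326, 2704, 3071 and 2261 CPM, and 0 reads elsewhere among the members. The 6 pools do not overlap with any other member in either gene. Summed over pools, Cd79a had 17761 reads in P15 and 0 in P05, a log2 ratio of pooled CPM of at least 11.82 with P05 set to 3 counts over its 7 pools. For Igkc, with 58643 reads against 0, the bound was at least 13.54. Both bounds rest on 1 animal of 3.

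The other B-cell genes differed among the 6 pools. Ms4a1, which encodes CD20, ranged from 13.5 to 724 CPM. Mzb1, a chaperone of antibody-making cells, was present in all 6, from 63.3 to 609 CPM. Jchain, which joins secreted antibody units, stood at 714, 472, 603 and 428 CPM in R1, R2, R4 and R5 and had 0 reads in R3 and R6. Pax5, the B-cell identity factor, reached 10 CPM in R2, R3, R4 and R6, with 238 CPM in R6. Ccr7, a receptor that guides lymphocytes and dendritic cells to lymphoid tissue, reached 87.1 to 519.7 CPM in 5 of the 6 and had 0 reads in R4. Cd79a, Igkc and Ms4a1 had 0 reads in all 7 P05 pools.

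The heavy-chain constant regions divided the B-cell pools; these genes, other than Ighm, were chosen after their values were seen. Ighg1, of the IgG1 class (chromosome 12, 113325240 to 113330523), had 15476 reads in R1, 1654 in R4 and 3808 in R5. Ighg2b had 2203 reads in R2 and 593 in R5. R3 and R6 had 0 reads of either. They held Ighm, of the IgM class, with 2225 and 6596 reads, together with Ighd, of the IgD class, with 633 and 777 reads. The division was not complete: Ighm also had 1753 reads in R1, 381 in R2 and 54 in R5, and Ighd 146 in R5. R4 had 0 reads of Ighm and of Ighd, and Igha had 0 reads in all 6. Ighm alone did not mark these pools: it reached 42 to 665 CPM in 4 of the 5 P15 pools of TENA2517 and 66.9 to 171 CPM in 4 of the 7 P05 pools, all with 0 reads of Cd79a and Igkc. In P05 of TENA2483, R5 had 249 reads of Ighd and R6 had 238 of Ighg2b. Whether counting used strand is not known, so reads from overlapping transcripts may be included.

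Germinal-centre genes, also chosen after their values were seen, followed the same division in part. Rgs13, a regulator of G-protein signalling found in germinal-centre B cells, stood at 248, 533, 177 and 664 CPM in R1, R2, R4 and R5 and at 0 in R3 and R6. Mef2b, a transcription factor of germinal-centre B cells, reached 108 to 326 CPM in R1, R2, R4 and R5 and at most 3.02 in R3 and R6. Among the remaining 13 members Rgs13 had 0 reads. Prdm1, the plasma cell factor, had 0 reads in all 6 B-cell pools.

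Kappa variable (V) segments gave a further view of the pools, since each B cell as a rule transcribes a rearranged light chain with 1 V segment. The leading segment took 76.9% of the kappa V reads in R1 (Igkv4-70, 5870 reads), 74.1% in R2 (Igkv6-25, 4598), 43.8% in R3 (Igkv1-117, 506), 79.3% in R4 (Igkv12-44, 2959), 44.7% in R5 (Igkv6-25, 2985) and 50.3% in R6 (Igkv1-117, 2612). R5 held Igkv17-127 as a further main segment, with 2595 reads and 38.9%. Igkv6-25 thus led in R2 and in R5, which also shared Igkv4-68 (623 and 276 reads), and Igkv1-117 led in R3 and in R6. The ends of the leading segments, as in the GENCODE M21 transcripts on GRCm38, are shown because they are the part that joins the J segment; each line gives the last 60 bases, 5′ to 3′ on the coding strand, with the bases after the codon of the conserved cysteine, where the third hypervariable loop starts, in capitals. That codon was taken as the last match of a tyrosine codon, a codon of tyrosine, phenylalanine or serine, and a cysteine codon.
Igkv4-70: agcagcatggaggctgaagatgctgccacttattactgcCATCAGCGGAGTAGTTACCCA
Igkv6-25: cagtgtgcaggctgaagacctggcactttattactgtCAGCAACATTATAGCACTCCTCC
Igkv8-24: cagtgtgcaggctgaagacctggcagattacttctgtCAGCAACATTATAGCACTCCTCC
Igkv1-117: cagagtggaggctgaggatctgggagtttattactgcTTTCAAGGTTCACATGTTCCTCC
Igkv12-44: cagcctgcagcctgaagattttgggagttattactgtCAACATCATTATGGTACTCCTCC
Igkv17-127: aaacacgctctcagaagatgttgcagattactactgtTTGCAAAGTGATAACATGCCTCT

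Igkv8-24, with 322 reads in R3, is printed because its capitals are letter for letter those of Igkv6-25, with 45 reads in the same pool. All 6 lie in the kappa locus on chromosome 6, Igkv1-117 at 68121046 to 68121827 and Igkv12-44 at 69814631 to 69815154. Of the 51-base stretches of the 4 leading segments, 62.9% (Igkv4-70), 49.2% (Igkv1-117), 45.2% (Igkv6-25) and 29.3% (Igkv12-44) occur in another V segment, and for Igkv4-68 the share was 47.4%, so reads of 51 bases cannot always be assigned and the counts of single segments are uncertain. That 2 pools share a leading segment is a description of read counts; whether they hold cells of a common origin was not tested.

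**Figure D2:**
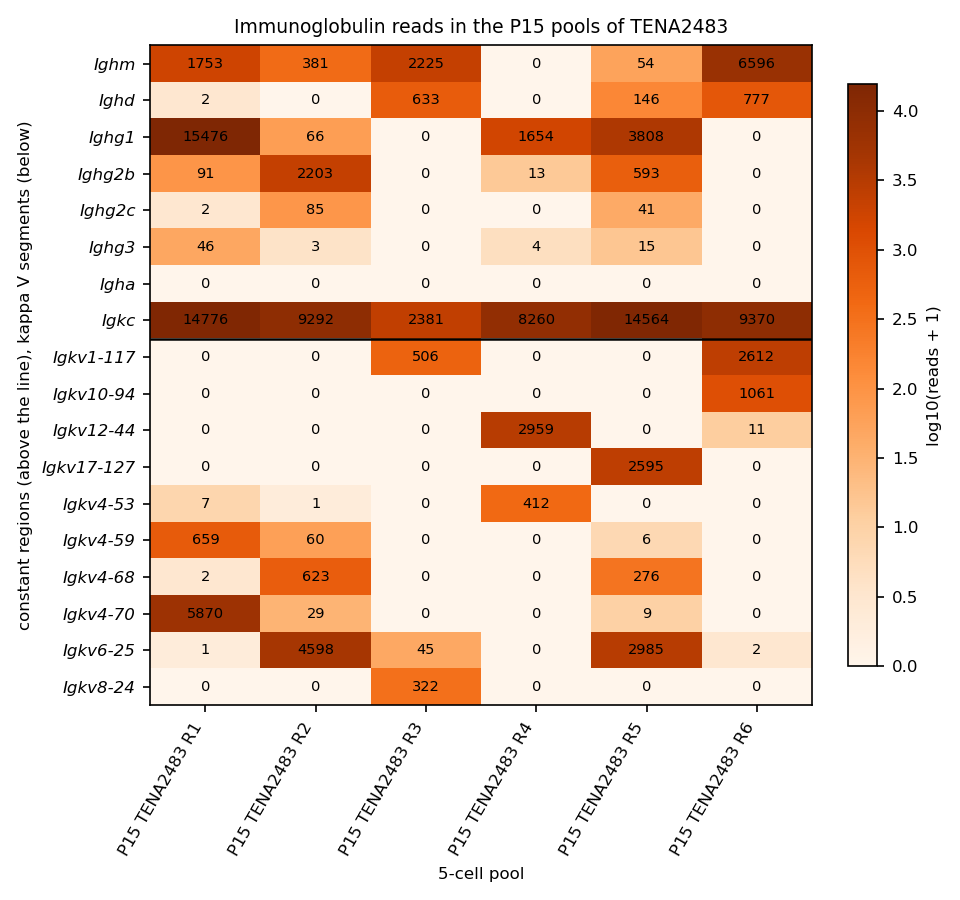
Reads of immunoglobulin constant regions (upper rows) and kappa V segments (lower rows) in the 6 P15 pools of TENA2483, with the number of reads in each cell and the shade on a log10(reads + 1) scale. Ighg1 has 15476, 1654 and 3808 reads in R1, R4 and R5 and 0 in R3 and R6, where Ighd has 633 and 777.

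Cell cycle genes were present in part of the B-cell pools. R1, R2 and R5 held 12, 9 and 9 of 16 cell cycle markers, R3 and R4 held 2 each and R6 held 1. Top2a, a topoisomerase of dividing cells, stood at 109, 545 and 469 CPM in R1, R2 and R5 and had 0 reads in R3, R4 and R6. In TENA2517 the P15 pool R2 held 8 of these markers and R4 held 5. In the 7 P05 pools the count was 0 to 4. The 55 epithelial P18 pools held 1 to 12 (median 2), with 18 of them at 3 or more. The 25 P05 pools with Ptprc under 10 CPM held 0 to 14, so such counts are not particular to the B-cell pools.

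Markers of other leukocytes accompanied the B cells in some pools. R4 of TENA2483 held 6 of 16 macrophage and 5 of 9 monocyte markers: Lyz2, a lysozyme of myeloid cells, stood at 14095 CPM, Cd14, a receptor for bacterial lipopolysaccharide, at 4027 CPM, Fn1 at 3755 CPM, Csf1r at 321 CPM and Il1b at 847 CPM, with 0 reads of C1qa, C1qb and C1qc. R3 held 4 of 12 neutrophil markers, among them S100a8 at 203 CPM and S100a9 at 13.4 CPM. Apoe was at 127 to 2356 CPM in the 6 pools. R4 and R5 held 3 and 4 of 17 T-cell markers, Lck (525 and 221 CPM), Cd2 (80.8 and 217 CPM) and Foxp3 (21.6 and 22.1 CPM) in both and Lat in R5. The T-cell receptor gene Trac and Cd3g had 0 reads in these 2 pools. Across all 19 members no pool held 3 markers of NK cells, mast cells, eosinophils, red cells or platelets, and R5 of P05 in TENA2483 held 3 of 12 dendritic cell markers.

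Levels of complement and lipid genes are given here for the pools with 10 or more macrophage markers, 5 of P15 and 7 of P05. C1qa, Csf1r, Cd14 and Apoe are on the macrophage list, so their presence there is a description and not a finding. C1qa, a subunit of complement C1q (chromosome 4, 136895917 to 136898803), stood at 2308, 3138, 6356, 2593 and 368 CPM in the 5 P15 pools of TENA2517. In P05 it was at 4111, 2608, 5609 and 2652 CPM in TENA2483, at 3380.0 CPM in TENA2517 and at 3766 and 927 CPM in TENA2524. The 5 P15 pools of TENA2517 and the 7 P05 pools overlapped in full. The 6 P15 pools of TENA2483 held at most 0.814 CPM, below every one of them, and the P15 pool of TENA2524 had 0 reads. Csf1r, the receptor on which macrophages depend, ran from 486 to 3660.2 CPM in P15 of TENA2517 and from 388 to 1515 CPM in P05. Lgmn, a lysosomal protease, showed the same layout, with 1123 to 3010.3 CPM in P15 of TENA2517, 1054 to 4173 CPM in P05 and at most 185 CPM in P15 of TENA2483. Cd14 was at 369 CPM or more in all of these 12 macrophage pools, but it is no macrophage marker in these tumours taken alone, since the 55 P18 pools held it at 108.6 to 4554 CPM; Apoe did not exceed 45 CPM there and C1qa did not exceed 3.85 CPM.

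Apoe (chromosome 7, 19696109 to 19699188) was at 5849.9 CPM or more in the pools with 10 or more macrophage markers and highest in P05. It stood at 9505, 23135, 18522, 28572 and 5849.9 CPM in P15 of TENA2517, and at 12372 CPM in the P15 pool of TENA2524. The P05 pools held 86772, 18408, 44995 and 36191 CPM (TENA2483), 14148 CPM (TENA2517) and 50852 and 44401 CPM (TENA2524). The P05 median of 44401 CPM lay above each P15 pool, but the ranges overlapped. On the sums per animal Apoe was 9284 ± 7781 CPM in P15 and 41950 ± 26770 in P05 (SD, n = 3 animals each), a fitted log2 difference of -2.18 ± 1.09 (SE) that did not pass (edgeR quasi-likelihood test, unadjusted p = 0.0724, adjusted p = 1). These P15 sums included the B-cell pools of TENA2483 and the single pool of TENA2524.

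Cytokine and residence genes varied among the pools with 10 or more macrophage markers. Il1b, the gene of interleukin 1 beta (chromosome 2, 129364570 to 129371139), was present in all 7 P05 pools, from 361 to 2401 CPM with a median of 943. In P15 of TENA2517 it was at 4309 CPM in R1 and 833 CPM in R6 and had 0 reads in R2, R4 and R5. Those 3 pools held C1qa at 2593 CPM or more, so they lacked Il1b reads but not macrophage RNA. Pf4, a chemokine of platelets and of some resident macrophages, stood at 97.2, 173, 249 and 16.7 CPM in R1, R2, R4 and R5 of TENA2517 and had 0 reads in all 7 P05 pools. Folr2, a folate receptor of resident macrophages, was at 24.8 and 71.4 CPM in R1 and R2 and at 0 elsewhere. Among other macrophage genes of the lists, Lyve1 shared this layout at a low level, and Cd163, Timd4, Mertk, Mrc1 and Adgre1 did not. Cd163 and Timd4 had 0 reads in both populations, and Mertk had 39 reads in P15 against 1412 in P05. Lyve1 had 66 reads in P15, all in TENA2517 (3.961 CPM on the sum of that animal), and 0 in P05. Mrc1, the mannose receptor CD206, reached 43.8, 205 and 275 CPM in R1, R2 and R4 of TENA2517, and in P05 it reached 128 CPM in the pool of TENA2517 and 11.2 CPM in R7 of TENA2524. Adgre1, which encodes F4/80, was at 0.681 to 187 CPM in P15 of TENA2517 and at 83.5 to 480.0 CPM in 6 P05 pools, with 0 reads in R2 of TENA2524.

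**Figure D3:**
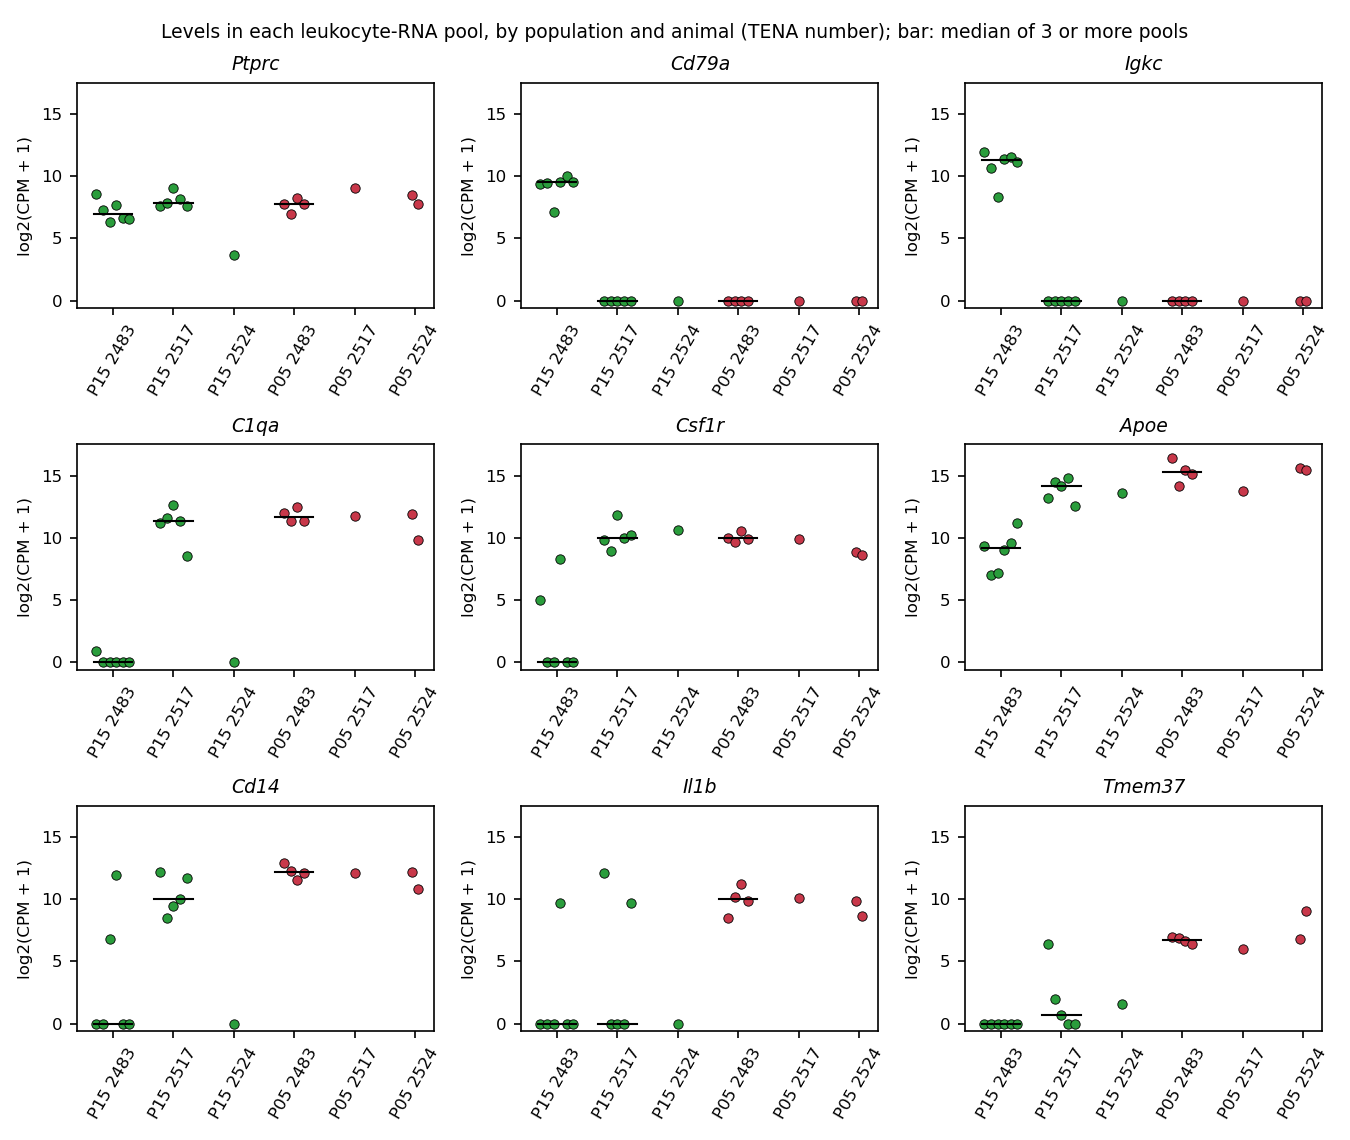
Level of 9 genes on a log2(CPM + 1) scale, 1 point per pool, P15 in green and P05 in red, by animal, with a bar at the median where an animal has 3 or more pools. Cd79a and Igkc are above 0 in the 6 P15 pools of TENA2483 alone, C1qa is at 368 CPM or more in the P15 pools of TENA2517 and at 927 CPM or more in all 7 P05 pools, and Ptprc is the gene that chose the pools.

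Among the members, single pools stood out in inflammatory and interferon genes. The P05 pools held 4 to 10 and 0 to 14 of 16, and the P15 pools 0 to 12 and 0 to 6. The 55 epithelial P18 pools held 1 to 6 inflammatory genes (median 3) and 0 to 16 interferon genes (median 6), so neither list is particular to the members. R1 of P15 in TENA2517 held 12 of 16 inflammatory genes, with Ccl4, a chemokine, at 8108 CPM, Ccl3 at 2643, Cxcl2 at 3298 and Tnf at 225 CPM. The P05 pool of TENA2517 held 10, with Ccl4 at 2024 and Tnf at 481 CPM. R1 of P05 in TENA2483 held 14 of 16 interferon response genes, with the antiviral genes Ifit1 at 616 and Ifit3 at 684 CPM, both with 0 reads in the other 18 members. R6 of P15 in TENA2517 held the interferon-induced chemokine Cxcl10 at 2026 CPM with 2 of 16 genes of the list. R5 of the same animal and population held Siglech, a receptor of plasmacytoid dendritic cells and microglia, at 1549.6 CPM (5854 reads), with 2 of 12 dendritic cell markers. Siglech was not confined to that pool. It had 84 and 605 reads in R1 and R11 of P05 in TENA2483 and 419 in R7 of P05 in TENA2524. R2 and R4 of P15 in TENA2517 had 18 and 64.

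Antigen presentation genes did not separate B-cell from macrophage pools. Cd74, the invariant chain of MHC class II, ran from 2032 to 14823 CPM in P15 of TENA2483, from 722 to 22004 in P15 of TENA2517 and from 2440.4 to 31986 in P05, and had 0 reads in the P15 pool of TENA2524. The P15 pools of the first 2 animals held 3 to 7 of 7 MHC class II genes and the P05 pools 4 to 7. Immediate early and heat shock genes, which can rise during tissue dissociation, were present in all members, with 5 to 14 of 15 genes in P15 and 8 to 15 in P05.

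The P15 pool of TENA2524 goes against the label of a leukocyte pool. It held 1 of 14 pan-leukocyte markers, Ptprc itself, and 1 of 12 pan-myeloid markers, Fcer1g, at 2178 CPM. Laptm5, a lysosomal protein of leukocytes, was at 3.93 CPM and Tyrobp, a myeloid signalling adaptor, had 0 reads. It did hold 5 of 16 macrophage markers, among them Csf1r at 1583 CPM, with C1qa at 0. Beside these stood 8 of 22 matrix and fibroblast markers (Sparc at 2204 CPM, Dcn at 427 CPM). The pool held 4 of 10 basal and contractile markers (Acta2, smooth muscle actin, at 1876 CPM, Mylk at 72.7 and Myh11 at 41.3 CPM). Of 12 endothelial markers it held 2, under the 3 that make a type, with Cdh5 at 84.5 CPM and 0 reads of Pecam1 and Kdr. Stab1, a scavenger receptor of endothelium and macrophages, was at 3857 CPM. With 508631 counts the pool was the shallowest member.

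Tumour transcripts were sparse in both populations. Epcam, whose protein the gates excluded, was at 10 CPM or more in 3 of 12 P15 pools (21 CPM in R3 and 100.5 CPM in R4 of TENA2483, 142 CPM in TENA2524) and in 2 of 7 P05 pools (153 CPM in TENA2517, 61.3 CPM in R7 of TENA2524). Krt8, a luminal keratin, did not exceed 0.265 CPM in P15 and reached 10 CPM in 2 P05 pools, with 47.5 CPM in R1 of TENA2483 and 18.1 CPM in R7 of TENA2524. Its partner keratin Krt18 had the opposite layout, at 84.2, 119 and 142 CPM in 3 P15 pools and at 74.1 CPM in 1 P05 pool. The fitted log2 differences were -7.81 for Krt8 and 3.33 for Krt18, neither of them called. In the 55 P18 pools Krt8 ran from 660.4 to 9058 CPM and Epcam from 1425 to 10544 CPM, above every member. The epithelial list of 24 genes gave 0 to 3 markers in the P15 pools and 0 to 2 in 6 of the 7 P05 pools, against 18 to 24 in P18.

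A single P05 pool held a fuller epithelial programme. R7 of TENA2524 had 13 of 24 epithelial markers, among them Plet1 at 151, Ehf, an epithelial transcription factor, at 420.3, Spint2 at 354 and Cdh1, which encodes E-cadherin, at 45 CPM. Plet1 and Cdh1 had 0 reads in all 12 P15 pools. Wfdc18, a secreted protein of the mammary gland, stood at 1875 CPM in this pool, at 27.8 CPM or less in the other P05 pools and at 0.352 CPM or less in P15. The same pool held 13 of 16 macrophage markers. Csn3, which encodes kappa casein, was at 169 CPM in P05 of TENA2517 and at 122 CPM in R3 of P15 in TENA2483, while Csn2 and Wap had 0 reads in all 19 members.

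Matrix genes reached high levels in 1 pool of each population of TENA2483. R3 of P15 held 16 of 22 matrix and fibroblast markers, with Col1a1, a chain of type I collagen, at 483 CPM, Sparc at 2199.6 and Lum at 240.3 CPM. It also held Tnc, the gene that drives the Cre of this line, at 268 CPM, Spp1, which encodes osteopontin, at 42197 CPM, and Slpi at 7270.2 CPM. R11 of P05 held 13 of 22, with Col1a1 at 2055, Col3a1 at 983 and Sparc at 694 CPM, and 0 reads of Tnc, Lum and Dcn. Col1a1 stayed at 3.52 CPM or less in the other 17 members. Tnc had reads in 1 further member, R6 of P05 in TENA2483, at 44.5 CPM, so 11 of 12 P15 pools had 0 reads of the gene whose promoter drives the switch to GFP. By the study's design the switch is permanent.

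**Figure D4:**
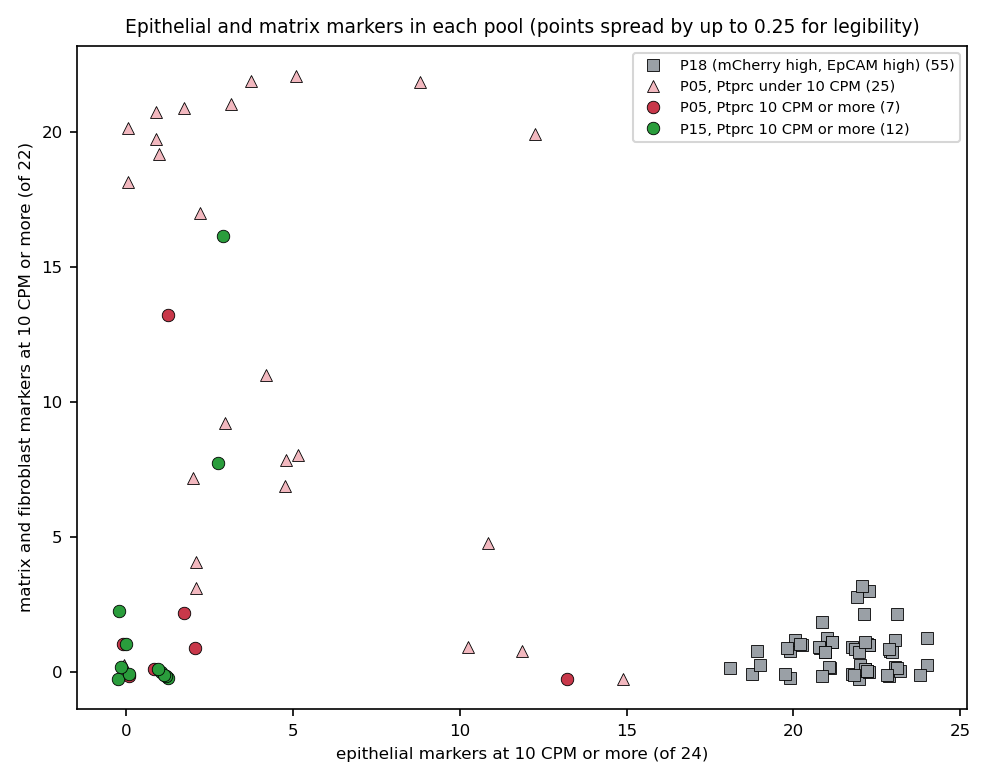
Number of epithelial markers (horizontal, of 24) against matrix and fibroblast markers (vertical, of 22) at 10 CPM or more, 1 point per pool. Of the members, R7 of P05 in TENA2524 has 13 epithelial markers, R3 of P15 and R11 of P05 in TENA2483 have 16 and 13 matrix markers, and the P15 pool of TENA2524 has 8; the 55 P18 pools hold 18 to 24 epithelial markers.

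The 25 P05 pools that passed with Ptprc under 10 CPM differed in what they held: 21 held matrix RNA against 1 of the 7 members, 14 held epithelial RNA against 1 of 7, and 9 held macrophage RNA against 7 of 7. Of these 9 pools 7 held 3 or 4 macrophage markers, near the count that P18 pools reach, and 2 held 10 or more. These pools were separated by Ptprc, so no test is given.

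When the counts were summed per animal and population, no gene passed an adjusted p of 0.05 between P15 and P05 (edgeR quasi-likelihood test, 0 of 8976 genes, 0%). The P15 sums were unlike each other. That of TENA2524 was the single pool with 1 of 14 pan-leukocyte markers, with 508631 counts. That of TENA2483 held 28603612 counts of 6 pools with B-cell RNA, and that of TENA2517 16070545 counts of 5 pools with macrophage RNA. An unadjusted p under 0.05 was reached by 237 genes (2.64%). On the same genes and animals, limma on the log2 of the mean CPM of an animal's pools also called 0 of 8976 (0%). DESeq2, run on the same sums with its own filter, fitted 20208 genes and gave 8553 an adjusted p, of which 247 (2.89%) were called and 190 of these were higher in P15. With no filter on low counts edgeR called 19 of 24242 genes. With the 19 pools as units and the animal as a random effect, limma voom called 194 of 5387 (3.6%), of which 167 were lower in P15. The fits that called genes differed from the first in the genes tested or the units as well as in the tool, and these were not separated. The dispersion common to all genes was 2.97 in the edgeR fit, and an exact permutation test of 3 animals against 3 cannot go below p = 0.1. The median log2 difference over all genes was 0.09 with TMM factors and -0.27 with size factors by relative log expression, and 4670 genes lay above 0 and 4306 below.

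B-cell genes were for the most part outside this test. Of the 12 B and plasma cell markers 2 passed the filter on low counts, since the others had reads in too few sums, and neither was called. Of the 16 macrophage markers 13 were tested, 12 of them fitted lower in P15, with a median of -1.98 and 0 called. Of the 12 pan-myeloid genes, all tested, 11 were fitted lower (median -1.58), and of 7 tested cell cycle genes 5 were fitted higher (median 3.42), with 0 called in either list. For C1qa the fitted difference was -2.08 ± 2.30 (SE, edgeR adjusted p = 1), and without TENA2517 it was called lower in P15 (edgeR adjusted p = 0.018). Of 12 alternative fits with an adjusted p 2 called C1qa, with values from 0.00922 to 1. Without TENA2517 the remaining P15 pools held at most 0.814 CPM.

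All 13 mitochondrial genes were fitted lower in P15, with a median of -1.80 and 0 called. Mitochondrial reads made up 0.489% to 4.68% of a P15 pool and 2.2% to 7.74% of a P05 pool. mt-Nd1, a subunit of respiratory complex I, ran from 172 to 1759.8 CPM in P15 and from 1697 to 7048 CPM in P05, so that 1 P05 pool lay within the P15 range. Its fitted difference was -2.37 ± 1.02 (unadjusted p = 0.0393, adjusted p = 1). The share of mitochondrial reads can move with RNA quality and with cell type, and neither was tested here.

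Among the genes fitted higher in P15, none of them called in the edgeR fit, the lowest p belonged to Slpi, an inhibitor of leukocyte proteases (chromosome 2, 164354070 to 164389095). It had 480.2, 114, 7270.2, 22.9, 65.8 and 0 CPM in P15 of TENA2483, 92.8 CPM in R2 of TENA2517 with 0 in the other 4, 287 CPM in TENA2524 and 0 reads in all 7 P05 pools. With 56227 reads against 0, the log2 ratio of pooled CPM was at least 13.48. This rests largely on R3 of TENA2483, with 53029 of the reads; without that pool 3198 reads remained and the bound was 9.60. With the animal as a replicate block Slpi was the single gene called (edgeR adjusted p = 0.0089), against an adjusted p of 1 without it. Of 13 alternative fits 5 called Slpi, with adjusted p from 5.28e-05 (DESeq2) to 0.999. Mcm3, a subunit of the replicative helicase, was at 599, 143 and 757 CPM in R1, R4 and R5 of TENA2483, at 4.77, 10.3 and 70.9 CPM in R1, R2 and R4 of TENA2517 and at 281 CPM in TENA2524, and had 0 reads in the other P15 pools and in P05.

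Rab7b, a GTPase of the endosomal pathway (chromosome 1, 131688695 to 131715439), had the lowest p of all (0.000416, adjusted p = 1). It had 0 reads in all 12 P15 pools and stood at 201, 46, 0.695 and 0.533 CPM in P05 of TENA2483, 245 CPM in TENA2517 and 146 and 383 CPM in TENA2524. With 4499 reads in P05 the log2 ratio of pooled CPM was at most -11.27, and at most -10.44 without R7 of TENA2524, which held 2589 of the reads. The P15 pools of TENA2517, which held macrophage RNA, lacked Rab7b reads as did the B-cell pools. The other genes of this rank that were higher in P15 were Ccn1, Rnaseh2c, Ppp1r16b, Ap4m1, Ccnf, Ap5z1, Ly6d and Maged2, and those lower were Wfdc18, Rab11fip1, Gdf15, Slc8b1, Gfpt1, Ormdl3, Zcchc14, AC166172.4 and Haus7. Rab11fip1 did not exceed 4.44 CPM in any pool. Most of the genes listed as higher in P15 were highest in the single shallow P15 pool of TENA2524. On the sums per animal Maged2 was at 2212.4 CPM there, against 7.987 in TENA2483 and 8.223 in TENA2517. Ap4m1 was at 1529.6 CPM, against 8.735 and 10.92. Ccn1, Rnaseh2c, Ccnf, Ap5z1 and Ly6d were also highest in TENA2524, and Ppp1r16b was highest in TENA2483.

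By the share of pools at 10 CPM or more, Tmem37, a membrane protein related to calcium channel subunits (chromosome 1, 120067377 to 120074074), and Rims2, a synaptic protein, had the largest difference on the P05 side, with 7 of 7 P05 pools against 1 of 12 P15 pools each. Tmem37 stood at 63.6 to 518 CPM in P05 and Rims2 at 38 to 497.7 CPM. The P15 pool was R1 of TENA2517 for both, at 83.6 and 103 CPM. Gpr35, a G-protein-coupled receptor, was at 26.9 to 506 CPM in all 7 and reached 10 CPM in 2 P15 pools, R1 and R6 of TENA2517, at 373 and 539 CPM. Smox and Il10rb were likewise at 10 CPM or more in all 7 P05 pools and in 2 P15 pools each. In the other direction Selenoh was at 10 CPM or more in 9 of 12 P15 pools and had 0 reads in all 7 P05 pools, and Snrpa1, a spliceosome component, was at that level in 9 against 0. CT485613.4 (12 against 1), Rpl30-ps8 (11 against 1) and Arcn1 (10 against 1) completed the 5, and of these CT485613.4 and Rpl30-ps8 are processed pseudogenes that may share reads with their parent genes. Selenoh did not pass the filter on low counts, and the other 9 genes named by this share had an adjusted p of 1 in the edgeR fit.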

How the data were processed

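Mouse 5-cell pools were sequenced by Smart-seq2, a full-length method without molecular identifiers, as paired reads of 51 bases, per the labels' protocols. The authors deposited counts per gene, not normalized and in whole numbers, for 504 wells. The submitters' processing notes name STAR, featureCounts, Subread and SAMtools, with build mm10; for versions, settings and strand use, values were not given in the sources used here. All 55450 identifiers were matched to symbols (GENCODE M21).

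CPM of a pool is its count over its column total, CT010467.1 included. A marker was held at 10 CPM or more and a type at 3 markers or more. Counts were summed per animal and population (3 animals each) and tested with edgeR 4.0.16 in R 4.3.3 (TMM, filterByExpr, robust quasi-likelihood F test, Benjamini-Hochberg adjustment, threshold 0.05), without a block. Alternatives used limma 3.58.1, DESeq2 1.42.0, other filters, levels and scalings, and sums without single animals or pools. Pairing comes from the animals, which gave both populations; deviations from the group means correlated at 0.009, 0.012 and 0.038 within them. The fit was tested on simulated data with dispersions below the 2.97 found here. That simulation therefore does not show what the fit can detect at the spread of these pools. Summaries and figures used Python 3 with pandas and matplotlib. A group at 0 was set to 3 counts over the group, and bounds are on pooled CPM.

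The genes named are the fixed markers, the 10 lowest p in each direction (predicted genes aside), the 5 largest differences in the share of pools at 10 CPM in each direction, and the 3 highest of each list; others are said to be chosen after their values were seen or only describe a pool. The members and lists were chosen with earlier results of these data known. Nothing says that pools of an animal are separate cultures, and p-values over pools measure the spread between pools. Some genes are not reported here.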

Additional observations from a re-analysis of the deposited data

Results flagged for a closer look

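Among 33 combinations of a group of 4 to 10 pools and a measure, 3 had an extreme pool whose gap to its nearest neighbour was large against the range (Dixon's 95% critical value, log2 scale for summed levels); chance gives about 1 in 20. In P15 of TENA2483, R3 had the lowest summed level of the B and plasma cell list, 1263.8 CPM against 4015.3 to 7434.3 in the other 5 pools, and it is the pool with 16 matrix markers. In the same group R1 had the lowest summed level of inflammatory genes, 3.53 CPM against 273.9 to 3107. In P15 of TENA2517, R6 had 0 CPM of the cell cycle list against 100.8 to 408 in the other 4.

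Leukocyte RNA also appeared in pools outside the comparison. In P10, the GFP-positive population with low EpCAM, R5 of TENA2483 held 11 of 12 B and plasma cell markers (Cd79a at 416 CPM, Igkc at 2195 CPM) and 1 macrophage marker. P10 pools R2, R3 and R6 of TENA2517 held 10, 10 and 9 of 16 macrophage markers and 1 B-cell marker each. Thus the P10 pools with Ptprc at 10 CPM or more held B-cell RNA in TENA2483 and macrophage RNA in TENA2517, as the P15 pools of these animals did; this was not tested. Of 17 empty wells 1 also held Ptprc (744 CPM in 44339 counts), with 8 of 16 macrophage markers. By the rule of 3 markers, 3 of the 17 empty wells held macrophage RNA and 2 held pan-leukocyte RNA.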

How the results depend on the processing

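The number of genes called between P15 and P05, 0 in the main comparison, was 0 with other size factors, with limma on mean levels, with Ptprc at 1 or 50 CPM, without the pools holding 3 or more epithelial or matrix markers (chosen after seeing the data), and in each of 19 fits leaving out 1 pool. It was 1 with the animal as a replicate block, 19 with no filter on low counts, 247 with DESeq2, 960 in a joint fit with the other populations of the line and 194 with limma voom on pools. Leaving out an animal or a pool gave 0 to 7, with the 7 calls without TENA2517. The block changed no other named call than that of Slpi.

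P15 and P05 pools holding macrophage or B-cell RNA stayed within 1.5 times at all 4 other settings. P15 pools holding epithelial RNA numbered 2, and 4 at a marker level of 1 CPM, 1 at 50 CPM and 0 with 5 markers; P05 pools numbered 1, and 5 at 1 CPM and 3 with 2 markers. P15 pools holding matrix RNA rose from 2 to 4 at 1 CPM, and P05 pools from 1 to 2 with 2 markers. The median number of genes in P05 fell from 6822 to 5423 on thinning. Depth limits the P15 pool of TENA2524 most. The small number of animals and the spread between pools limit the test, and the cause of the differences between these fits, which also differ in genes tested or units, was not tested. The bounds of Slpi and Rab7b without the pool that held the most reads were chosen after seeing the data.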
